A study of Mus musculus with 24 samples.

Results

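The Tshz2 locus was described here by every CpG measured on chromosome 2 between base 169631013 and base 170073816 of the mouse genome (build GRCm38), which is the annotated span of Tshz2 (ENSMUSG00000047907, plus strand) with 2 kb added on either side. Of the 694379 CpGs in the table, 233 lay in this window of 442.804 kb. DNA methylation had been measured by reduced representation bisulfite sequencing (RRBS) in micro-dissected dentate gyrus of individual female C57BL/6JRj mice. There were 8 young mice in standard housing (young STD, 3 months old), 8 aged mice in standard housing (aged STD, 17 months old) and 8 aged mice that had lived in environmental enrichment for the last 3 months (aged ENR, 17 months old). The tissue is a mixture of granule neurons, other neurons and glia, so a shift in the mixture and a shift of methylation within a cell type cannot be told apart in these values.

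Tshz2 encodes a teashirt zinc finger homeobox protein, a transcriptional repressor of a family that includes Tshz1 and Tshz3 and works in part with the CtBP co-repressors. Methylation of cytosine in CpG dinucleotides is usually absent from CpG-rich promoters and dense over gene bodies, and intermediate levels in bulk tissue arise where cells or alleles differ. RRBS reads only the ends of fragments cut by MspI at CCGG, so it samples a locus in small patches of CpGs that share their reads. Bisulfite turns an unmethylated cytosine into uracil, and the methylation level of a CpG in a mouse is the percentage of its reads that kept the cytosine.

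The plus strand of the reference genome is shown for the patches on which the results turn, with the measured CpGs in capitals and every other base in lower case. The first sequence, chr2:169826371-169826630, lies in the first intron and ends at the right end of the study's targeted bisulfite amplicon. It is shown because it holds the CpG at chr2:169826489 that the study followed up, which was read on the minus strand and is the CpG at bases 118 and 119 of the sequence.
Tshz2 amplicon region: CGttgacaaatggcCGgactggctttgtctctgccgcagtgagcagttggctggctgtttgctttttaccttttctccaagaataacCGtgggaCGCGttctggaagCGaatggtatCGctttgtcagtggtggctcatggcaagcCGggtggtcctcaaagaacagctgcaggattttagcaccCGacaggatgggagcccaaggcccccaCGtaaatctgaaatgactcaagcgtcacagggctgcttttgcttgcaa

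The second, chr2:169743706-169743788, also in the first intron, is shown for the 5 CpGs that include those with the smallest p-values in the comparison of aged ENR with aged STD mice. The third, chr2:169723888-169723963, and the fourth, chr2:169723759-169723819, are neighbouring patches of the first intron with CpGs named below. The fifth, chr2:170041838-170041889, lies near the 3′ end of the gene and holds the CpG with the smallest p-value between aged STD and young STD mice. The sixth, chr2:169863436-169863457, is a CpG of the methylated gene body, shown for contrast.
First intron, 110.7 kb patch: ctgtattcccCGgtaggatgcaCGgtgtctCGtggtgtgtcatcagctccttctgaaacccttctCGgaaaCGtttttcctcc
First intron, 90.9 kb patch: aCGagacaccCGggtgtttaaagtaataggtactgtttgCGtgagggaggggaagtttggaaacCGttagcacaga
First intron, 90.8 kb patch: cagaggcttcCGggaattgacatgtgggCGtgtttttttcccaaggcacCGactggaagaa
Downstream intron patch: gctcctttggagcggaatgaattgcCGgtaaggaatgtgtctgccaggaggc
Methylated gene body patch: cctactacccCGgtgcttggaa

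The 233 CpGs were single cytosines, 126 on the plus and 107 on the minus strand, and all of them lay at a CG of the reference. They covered 220 of the 6658 CpG dinucleotides of the window (3.30%), and 13 dinucleotides were measured on both strands. Grouped by strand and by the MspI end from which they were read, they formed 100 read blocks of at most 8 CpGs, all within 75 bases of a cut. The longest stretch without a measured CpG was 38.673 kb. Of the members, 15 (6.44%) lay in repeats marked in the reference, which make up 22.2% of the window.

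Coverage was sparse and differed between mice. A CpG of the locus had a value in 9 to 24 mice (median 13, against 15 over all CpGs). Values in all 24 mice were present for 7 CpGs, at least 5 mice in each group for 62 CpGs, and exactly 3 mice in some group for 115 CpGs. The number of CpGs with a value ranged from 103 to 182 in young STD, from 94 to 211 in aged STD and from 88 to 201 in aged ENR mice. The number of reads behind a percentage is unknown, so no interval is given for single values.

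Most single values were extreme. Of the 3305 values in the locus, 48.2% were exactly 100 and 29.3% exactly 0, together 77.4%, against 83.6% at 0 or 100 over the whole table. In the 5 mice with the most covered CpGs (178 to 211), 58.2% to 72.0% of the values of the locus were at 0 or 100, and in the other 19 mice (88 to 152 covered CpGs) 71.9% to 90.3% were. Next CpGs of the same read block differed by at most 10 points in 74.5% of 1888 comparisons within a mouse and by over 50 points in 11.8%. The 2 strands of a dinucleotide, which come from different reads, differed by a median of 7.84 points in 104 comparisons and by over 50 points in 15.4%.

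**Figure D1:**
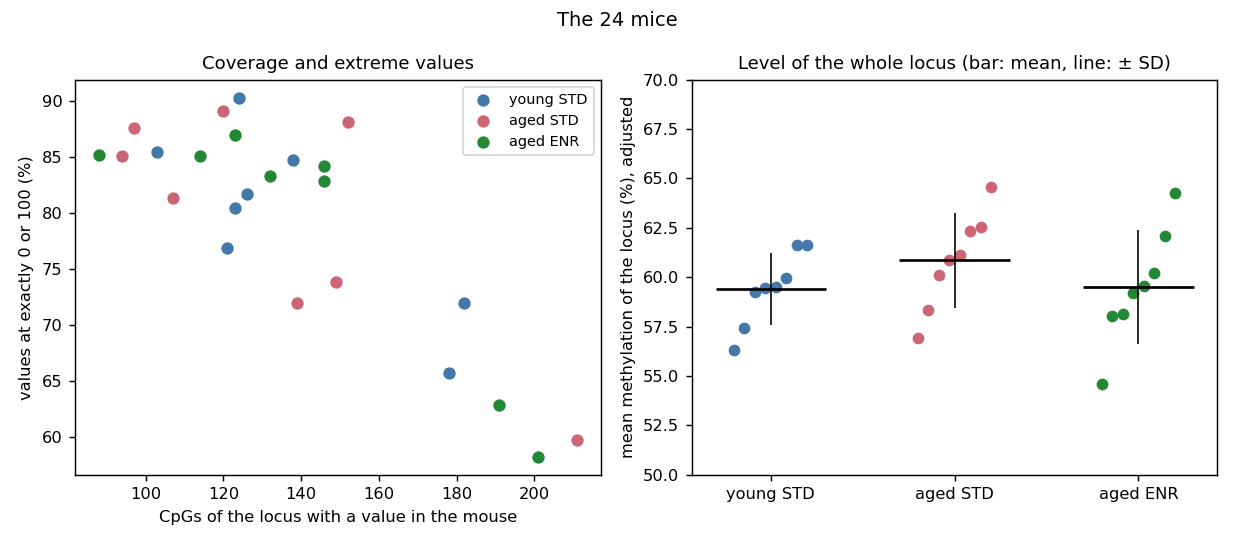
Left, the number of CpGs of the Tshz2 locus with a value in a mouse (x axis) against the percentage of those values that were exactly 0 or 100 (y axis), 1 point per mouse. Right, the mean methylation of the locus in each mouse after adjustment for which CpGs were covered (y axis, percent, shown from 50 to 70), with the group mean (bar) and SD (line); the 5 mice with the most covered CpGs have extreme shares of 58.2% to 72.0%, the other 19 mice 71.9% to 90.3%, and in the right panel the groups overlap.

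A single library stood apart over the whole table. Aged STD replicate 5 had a mean methylation of 23.6% over its covered CpGs, against 35.8% to 44.5% in all other mice. At the Tshz2 locus the same mouse had a value at 94 of the 233 CpGs. Adjusted for the CpGs it lacked, its level did not stand apart, at 61.1%, between the lowest (56.9%) and the highest (64.5%) of its group. By the plain mean, the measure used for the whole table, it was the lowest of its group at 54.5% (highest 65.7%). Young STD replicate 3 was lower still by that measure, at 51.2%.

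The level of the locus as a whole was nearly equal in the groups. After adjustment for the CpGs that a mouse lacked, the mean was 59.4% ± 1.84 (SD, n = 8) in young STD, 60.9% ± 2.43 (n = 8) in aged STD and 59.5% ± 2.88 (n = 8) in aged ENR mice. The lowest mouse of each group lay at 56.3%, 56.9% and 54.6% and the highest at 61.6%, 64.5% and 64.2%, in the same order. The groups overlapped over most of their range, and the median difference over the 233 CpGs was 0 points for aged STD minus young STD, for aged ENR minus aged STD and for aged ENR minus young STD, as it was over all CpGs of the table.

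Along the gene there were an unmethylated start, a body with many methylated CpGs and a number of intermediate patches. By the mean of the 3 group means, 32 CpGs (13.7%) were under 10%, 75 (32.2%) over 90% and 126 (54.1%) in between. Over the whole table these shares were 47.4%, 22.6% and 29.97%. The locus thus held a larger share of intermediate CpGs than the table, and its median level was 74.5% against 13.1% for all CpGs.

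The start of Tshz2 was at or near 0% in most mice of every group. The first exon begins at chr2:169633013, and 17 CpGs between base 169633304 and base 169633645 formed a cluster in the exon, all of it 5′ untranslated. The mean of the cluster, adjusted for uncovered CpGs, was 0.987% ± 1.08 (SD, n = 8) in young STD, 2.95% ± 5.22 (n = 8) in aged STD and 0.879% ± 1.15 (n = 8) in aged ENR mice. A single mouse, aged STD replicate 2 at 15.6%, carried most of the aged STD mean, and without it the mean was 1.14% ± 1.06 (n = 7). Of the single values, 94 of 100 were 0 in young STD, 81 of 97 in aged STD and 86 of 96 in aged ENR mice. Within 1 kb of this start, 18 of 19 CpGs were under 10%.

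Even the best covered CpGs of the exon carried a few mice away from 0. At chr2:169633304, measured in all 24 mice, young STD replicate 2 was at 36.4%, aged STD replicate 8 at 0.769% and aged ENR replicate 4 at 8.11%, and the other 21 mice were at 0. At chr2:169633334 aged STD replicate 7 was at 27.7% and aged ENR replicates 7 and 8 were at 15.0% and 9.72%, with all other mice at 0. At chr2:169633342 the highest value was 9% in young STD, 24.3% in aged STD (replicate 2) and 0% in aged ENR mice. The adjusted p of these 3 CpGs by limma was 1 in all 3 comparisons.

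The first intron, 249.746 kb long, held 135 of the CpGs in 56 read blocks, with a median level of 84.0%. Of these, 54 were over 90%, 4 under 10% and 77 in between. The whole of this intron is also annotated as the antisense non-coding gene Gm26883, which ends close to the Tshz2 start and begins at the far edge of the Tshz2 exon that follows. That exon (chr2:169883526-169888504), which carries nearly all of the coding sequence, held 7 CpGs with a median level of 95.2%. Internal starts of shorter Tshz2 transcripts are annotated inside it, and the 4 CpGs within 1 kb of them ranged from 84.8% to 100%. The region downstream of it held 71 CpGs in 35 read blocks, with a median of 46.8%, and 47 of them were intermediate. The start region with the 2 kb before it accounted for the remaining 20.

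**Figure D2:**
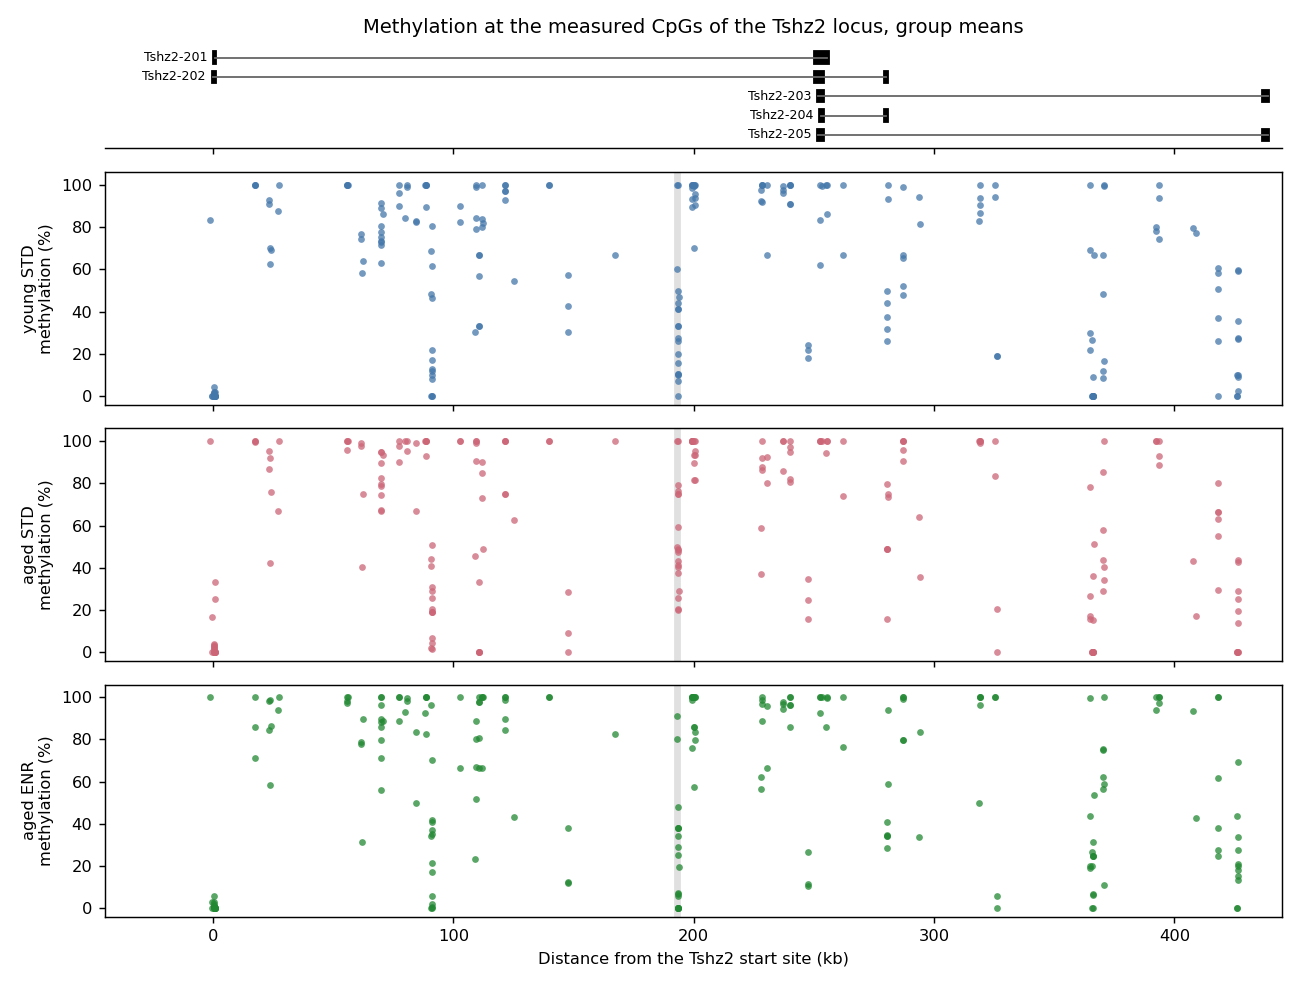
Group means of methylation (y axis, percent), 1 panel per group, at the 233 CpGs of the locus, by distance from the Tshz2 start site (x axis, kb). The top row shows the 5 annotated transcripts with exons as boxes, widened slightly to be visible, and the grey band marks the bisulfite amplicon; in each group the start lies near 0%, while the first intron and the region downstream hold methylated and intermediate patches.

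Clusters of CpGs, joined where neighbours lay at most 200 bp apart and kept with at least 3 CpGs, gave 30 patches holding 181 of the CpGs. Of these patches 12 had a level over 90% and 1, the first exon, was under 10%. The next lowest was chr2:169998945-169999250, 10 CpGs in an intron 365.932 kb from the start, with 2.67% ± 4.70 (SD, n = 6) in young STD, 11.8% ± 17.5 (n = 7) in aged STD and 17.8% ± 22.1 (n = 8) in aged ENR mice. In that patch aged STD replicate 5, the library that stood apart, was at 45.0%, above the other aged STD mice, and raised their mean. The highest patch was chr2:169688660-169688686 in the first intron, with 100% in all 6 young STD mice, 98.6% ± 3.81 (n = 7) in aged STD and 98.4% ± 3.06 (n = 7) in aged ENR mice. No annotated start lies within 1 kb of the low patch.

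Aging, the comparison of aged STD with young STD mice, asked which CpGs differ at 17 months. The size criterion was a difference of over 25 percentage points between plain means of mice, with the cutoff taken from the study. It was met at 47 of the 233 CpGs (20.2%), against 9.16% of all CpGs. Aged STD mice had the higher mean at 25 of the 47 (10.7%, against 4.15% of all CpGs) and the lower mean at 22 (9.44%, against 5.01%). They came from 28 read blocks, and 28 of the 47 had exactly 3 mice in a compared group. Among CpGs with at least 5 mice in each group, 9 of 62 (14.5%) met the criterion, against 5.15% of such CpGs in the table.

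Enrichment, the comparison of aged ENR with aged STD mice, gave the same number. The criterion was met at 47 CpGs (20.2%, against 8.33% of all CpGs). The aged ENR mean was the higher at 24 (10.3%, against 3.82%) and the lower at 23 (9.87%, against 4.51%). They came from 30 read blocks, and 32 had exactly 3 mice in a compared group. Among CpGs with at least 5 mice in each group, 4 of 62 (6.45%) met it, against 4.72% in the table. Aged ENR and young STD mice differed by over 25 points at 48 CpGs (20.6%, against 8.43%), with the aged ENR mean higher at 28 (12%, against 3.43%) and lower at 20 (8.58%, against 4.99%). Without aged STD replicate 5, 217 CpGs kept 3 mice in each group. The counts were then 47 for aging (21.7%, against 9.47% of all CpGs), 40 for enrichment (18.4%, against 8.77%) and 40 for aged ENR against young STD mice (18.4%, against 8.45%).

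A CpG was called opposite where both the aging and the enrichment difference were over 25 points and pointed in opposite directions. This held for 26 CpGs (11.2%, against 3.49% of all CpGs), 13 lower in aged STD than in young STD mice and higher with enrichment (5.58%, against 1.83%), and 13 the other way round (5.58%, against 1.66%). Both differences use the same aged STD mice, so they are not independent of each other. The 26 CpGs came from 16 read blocks, 17 of them had exactly 3 mice in some group, and 4 had at least 5 mice in every group (6.45% of such CpGs, against 1.64% in the table). Without aged STD replicate 5 there were 22 opposite CpGs among 217 (10.1%, against 3.73%). At 19 of the 26, aged ENR and young STD means lay within 25 points of each other. The choice of opposite CpGs favours this by construction, since the 2 differences partly cancel. The same share was not taken over all CpGs, so the count is a description only. Differences in the same direction over 25 points were present at 2 CpGs (0.858%, against 0.139% of all CpGs).

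These shares are also read against the level of the CpGs, since the locus held more intermediate CpGs than the table. Within the class of 10% to 90%, 37.3% met the criterion for aging (29.5% in the table), 36.5% for enrichment (26.8%) and 20.6% were opposite (11.2%). The class is set by the same group means as the differences, so it draws in CpGs with large differences by construction, and these shares are a description only.

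**Figure D3:**
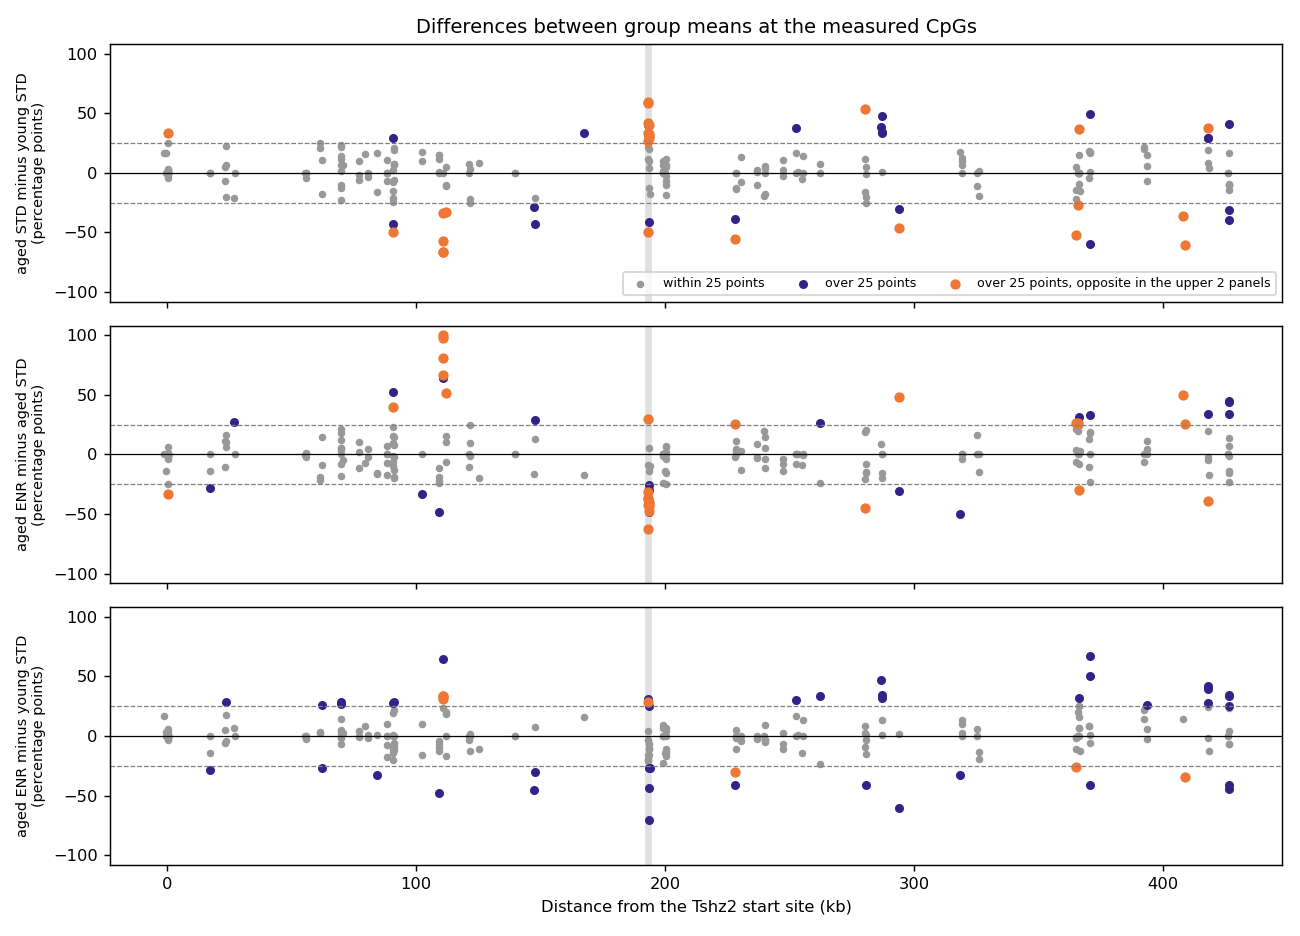
Differences between group means (y axis, percentage points) at the 233 CpGs by distance from the Tshz2 start site (x axis, kb), for aged STD minus young STD, aged ENR minus aged STD and aged ENR minus young STD. Dashed lines mark 25 points either way, orange points the 26 opposite CpGs and the grey band the bisulfite amplicon; nearly all differences over 25 points lie away from the start.

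The threshold separates CpGs with close values. Just outside it were differences of exactly 25 points, at chr2:169633597 and chr2:169754550 for both aging and enrichment. Just inside it were 26.6 points for aging at chr2:169826307 and 25.2 points for enrichment at chr2:169861073.

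With mice as replicates, no CpG of the locus passed. In a limma fit across all 694379 CpGs the adjusted p was under 0.05 at 0 of the 233 for aging, 0 for enrichment and 0 for aged ENR against young STD mice. Over the whole table it was under 0.05 at 34, 31 and 35 CpGs (0.00490%, 0.00446% and 0.00504%). At an unadjusted p under 0.05 the locus had 11, 9 and 4 CpGs (4.72%, 3.86% and 1.72%), against 2.23%, 1.90% and 2.18% of all CpGs. The spread between mice was large where the means differed, with a median SD over all mice of 37.7 points at the 47 CpGs of the aging comparison. The groups did not overlap at 2 CpGs for aging (0.858%, against 0.342% of all CpGs), at 4 for enrichment (1.72%, against 0.295%) and at 3 for aged ENR against young STD mice (1.29%, against 0.310%).

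The CpG at chr2:169826489, 193.476 kb into the first intron, had a value in 11 mice. Young STD mice were at 0%, 0%, 0% and 42.9%, aged STD mice at 0%, 20.97%, 39.6% and 100%, and aged ENR mice at 0%, 0% and 0%. The 3 aged ENR values and all but 1 of the young STD values were 0, and the only mouse beyond 42.9% was an aged STD mouse, while another aged STD mouse was at 0. The means were 10.7% ± 21.4 (SD, n = 4), 40.1% ± 43.1 (n = 4) and 0% ± 0 (n = 3).

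Neither difference at this CpG exceeded the spread between mice. Aged STD minus young STD was 29.4 points (p = 0.371, two-sided exact permutation test), and aged ENR minus aged STD was −40.1 points (exact permutation p = 0.257). Aged ENR minus young STD was −10.7 points (exact permutation p = 1). With 4 against 4 mice (70 relabelings) the smallest p that this test can give is 0.0286, and with 3 against 4 mice it is the same. The adjusted p by limma was 1 for each of these differences. Without aged STD replicate 2, the mouse at 100%, the first difference was 9.48 points and the second −20.2 points.

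A further 6 CpGs lie within 50 bp, and 5 of them were read in the same minus-strand block as the CpG at chr2:169826489, so they share its mice and reads. In that block of 6 CpGs all 18 values of the 3 aged ENR mice were 0. The mean over the block ranged from 4.63% to 32.7% in the 4 young STD mice and from 0% to 83.3% in the 4 aged STD mice, so these groups overlapped. At chr2:169826459 young STD mice were at 0%, 0%, 0% and 40.9% and aged STD mice at 0%, 32.8%, 39.6% and 100%. The CpG at chr2:169826466 had young STD mice at 0%, 0%, 0% and 42.9% and aged STD mice at 0%, 1.96%, 63.9% and 100%. At chr2:169826468 young STD mice were at 0%, 0%, 28.6% and 35.1% and aged STD mice at 0%, 0%, 37.3% and 65.1%. At each of these 3 CpGs at least 1 aged STD mouse was at 0, and the young STD and aged STD mice overlapped, with aging differences of 32.9, 30.8 and 9.66 points (adjusted p = 1 by limma for each). At chr2:169826479, 10 bases away, young STD mice were at 0%, 35.1%, 40.9% and 100% and aged STD mice at 0%, 40.7%, 52.5% and 100%, and the aging difference was 4.29 points. At chr2:169826518 young STD mice were at 0%, 0%, 0% and 27.8% and aged STD mice at 0%, 40.7%, 48.3% and 100%, a difference of 40.3 points (adjusted p = 1 by limma).

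The remaining neighbour, chr2:169826517 on the plus strand, is the other cytosine of the dinucleotide that holds chr2:169826518 and was read from other fragments and partly in other mice. Young STD mice were at 0%, 0% and 100%, aged STD mice at 0%, 10.8%, 21.4% and 49.2% and aged ENR mice at 0%, 0% and 18.2%. Its aging difference was −13.0 points by means, which rest on 1 young STD mouse at 100%, and 16.1 points by medians, against 40.3 and 44.5 points at the minus-strand cytosine. The mean over all CpGs within 50 bp had a value in more mice and was 27.3% ± 37.4 (SD, n = 6) in young STD, 27.7% ± 30.6 (n = 6) in aged STD and 4.55% ± 9.09 (n = 4) in aged ENR mice. The aging difference of this mean was 0.358 points (exact permutation p = 0.965) and the enrichment difference −23.1 points (exact permutation p = 0.233). The mean was not adjusted for which CpGs a mouse lacked, and the added mice had a value only at chr2:169826517. Young STD replicate 8 entered it at 100% from that CpG alone and raised the young STD mean, so the small aging difference depends on this mouse.

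The study's bisulfite amplicon, which the primers place at chr2:169826099-169826630 (532 bp), contained 18 of the CpGs, the same 18 as the cluster chr2:169826245-169826583. The amplicon was chosen by the study for its follow-up, so its share of the differences is a description. It held 12 of the 47 CpGs over 25 points for aging (10 higher and 2 lower in aged STD mice), 15 of the 47 for enrichment (14 lower and 1 higher in aged ENR mice) and 10 of the 26 opposite CpGs. Without aged STD replicate 5 these counts were 11, 14 and 8.

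The 18 CpGs fell in 4 read blocks that did not all behave alike. In the 2 minus-strand blocks all 11 CpGs were higher in aged STD than in young STD mice and lower in aged ENR than in aged STD mice. The plus-strand block at its left end, with 4 CpGs measured in 15 or 16 mice, had 3 CpGs higher and 1 lower in aged STD mice by over 25 points. The plus-strand block at its right end had 3 CpGs, of which 2 were lower in aged STD mice. Since each block rests on its own 3 to 6 mice per group, most mice were measured in only some of the blocks.

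**Figure D4:**
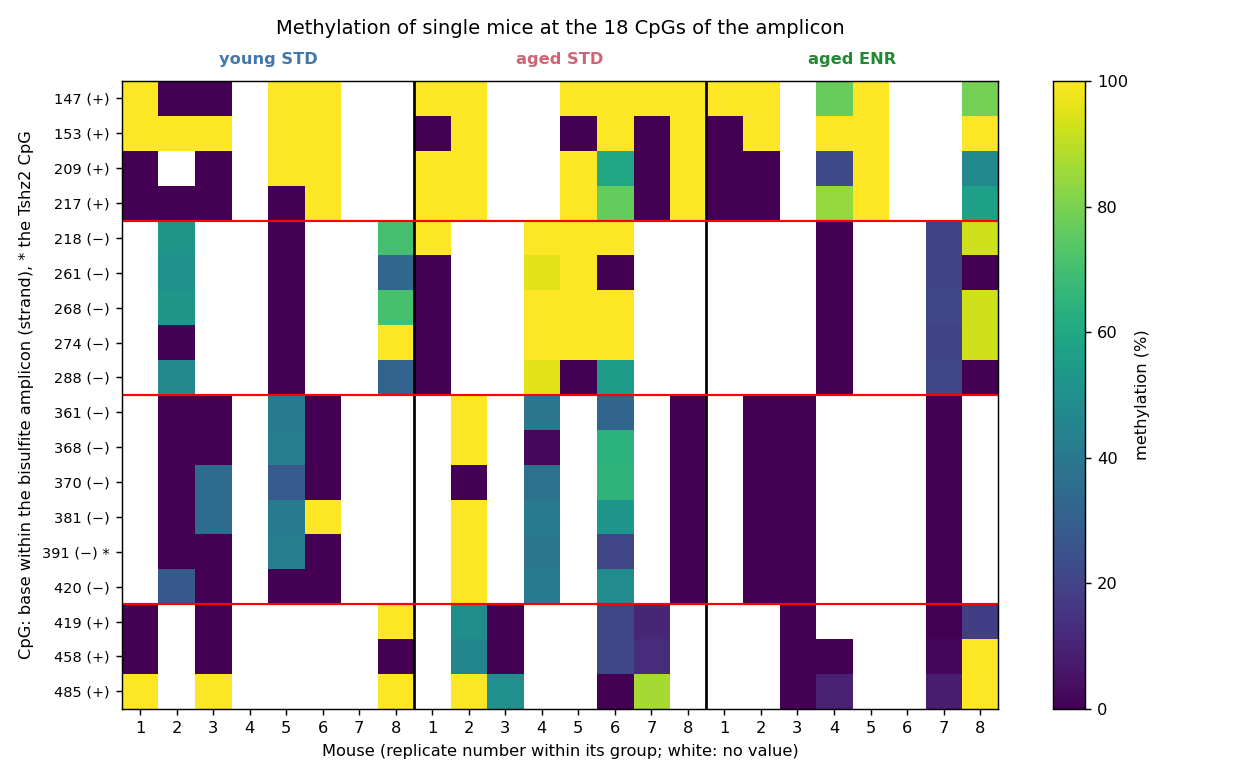
Methylation (colour, percent) at the 18 CpGs of the bisulfite amplicon (rows, with the base within the amplicon and the strand) in each of the 24 mice (columns, by group and replicate), white where a mouse had no value. Red lines part the 4 read blocks, and the asterisk marks the CpG at chr2:169826489, which is 0 in the 3 aged ENR mice with a value and spans 0 to 100 in the 4 aged STD mice.

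Over the amplicon the spread between mice was as large as the differences. The plain mean of a mouse over its covered CpGs ranged from 20.8% to 63.2% (median 37.97%, n = 6) in young STD, from 16.7% to 84.3% (median 50.5%, n = 8) in aged STD and from 0% to 100% (median 25%, n = 7) in aged ENR mice. Adjusted for uncovered CpGs, the cluster differed by 11.5 points (SE 12.3) for aging and by −21.01 points (SE 11.8) for enrichment, with adjusted p of 0.925 and 0.969 by limma. Without aged STD replicate 5 the differences were 9.39 and −18.9 points.

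Among the opposite CpGs with the most mice, 3 were in the plus-strand block at the left end of the amplicon. At chr2:169826315 young STD mice were at 0% except replicate 6 at 100%. Of the 6 aged STD mice the lowest was 0%, the median 100% and the highest 100%, and aged ENR mice were at 0%, 0%, 56.5%, 84.0% and 100%. The means were 20% ± 44.7 (SD, n = 5), 79.4% ± 40.03 (n = 6) and 48.1% ± 46.6 (n = 5), and the aging difference of 59.4 points (SE 26.1, adjusted p = 1 by limma) was the largest positive aging difference of the locus. The minus-strand cytosine of the same dinucleotide, chr2:169826316, averaged 41.1% ± 36.6 (SD, n = 3) in young STD, 100% in all 4 aged STD and 37.8% ± 48.7 (n = 3) in aged ENR mice. It was named after its values were seen, as the only CpG whose aged STD mice overlapped with neither of the other groups, with aged STD replicate 5 among the 4.

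In the same read block another CpG lay the other way. At chr2:169826251 all 5 young STD mice were at 100%, aged STD replicates 1, 5 and 7 at 0% and replicates 2, 6 and 8 at 100%, and aged ENR replicate 1 at 0% with the other 4 at 100%. The aging difference was −50 points and the enrichment difference 30 points. At chr2:169826307 young STD mice were at 0%, 0%, 100% and 100%. The aged STD mice there had a lowest value of 0%, a median of 100% and a highest of 100%, and the aged ENR mice were at 0%, 0%, 22.7%, 47.6% and 100%, with differences of 26.6 and −42.5 points. Without aged STD replicate 5 the aging differences at chr2:169826315, chr2:169826251 and chr2:169826307 were 55.2, −40 and 21.9 points and the enrichment differences −27.1, 20 and −37.8 points, so the last 2 CpGs no longer met the criterion in both comparisons.

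The other 3 opposite CpGs with the most mice lay elsewhere and were lower in aged STD mice. At chr2:169723927, 90.914 kb into the gene, young STD mice were at 43.2%, 70.6%, 90%, 100% and 100%, aged STD mice had a lowest value of 0%, a median of 23.6% and a highest of 100%, and aged ENR mice had a lowest of 34.1%, a median of 72.0% and a highest of 100%. Except for 1 aged STD mouse at 100%, every aged STD mouse was below every young STD mouse. The means were 80.8% ± 24.2 (SD, n = 5), 31.0% ± 37.3 (n = 6) and 70.4% ± 22.2 (n = 6). The aging difference was −49.7 points (SE 17.3, adjusted p = 1 by limma) and the enrichment difference 39.4 points (SE 16.5, adjusted p = 1 by limma). Aged STD replicate 5 had no value there.

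The CpG at chr2:170041863, 408.850 kb into the gene, had the smallest p of the locus for aging. Young STD mice were at 45%, 66.7%, 75%, 100% and 100% and aged STD mice at 0%, 0%, 4.76%, 32.1% and 48.9%, so only the lowest young and the highest aged STD mouse crossed. Aged ENR mice lay between 0% and 100% with a median of 39.7% (n = 7). The aging difference was −60.2 points (SE 17.1, adjusted p = 1 by limma) and the enrichment difference 25.7 points (SE 15.8, adjusted p = 1 by limma). Aged ENR mice were 34.5 points lower than young STD mice (adjusted p = 1 by limma).

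At chr2:169998018, measured in 17 mice, young STD mice had a lowest value of 0%, a median of 100% and a highest of 100%, with 5 of 8 at 100%. Aged STD mice were at 0%, 0%, 2.70%, 36.4% and 47.3% and aged ENR mice at 0%, 0%, 74.3% and 100%. No aged STD mouse reached 50%, but 2 young STD mice were at 0 too. The aging difference of −52.2 points had an adjusted p of 1 by limma.

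**Figure D5:**
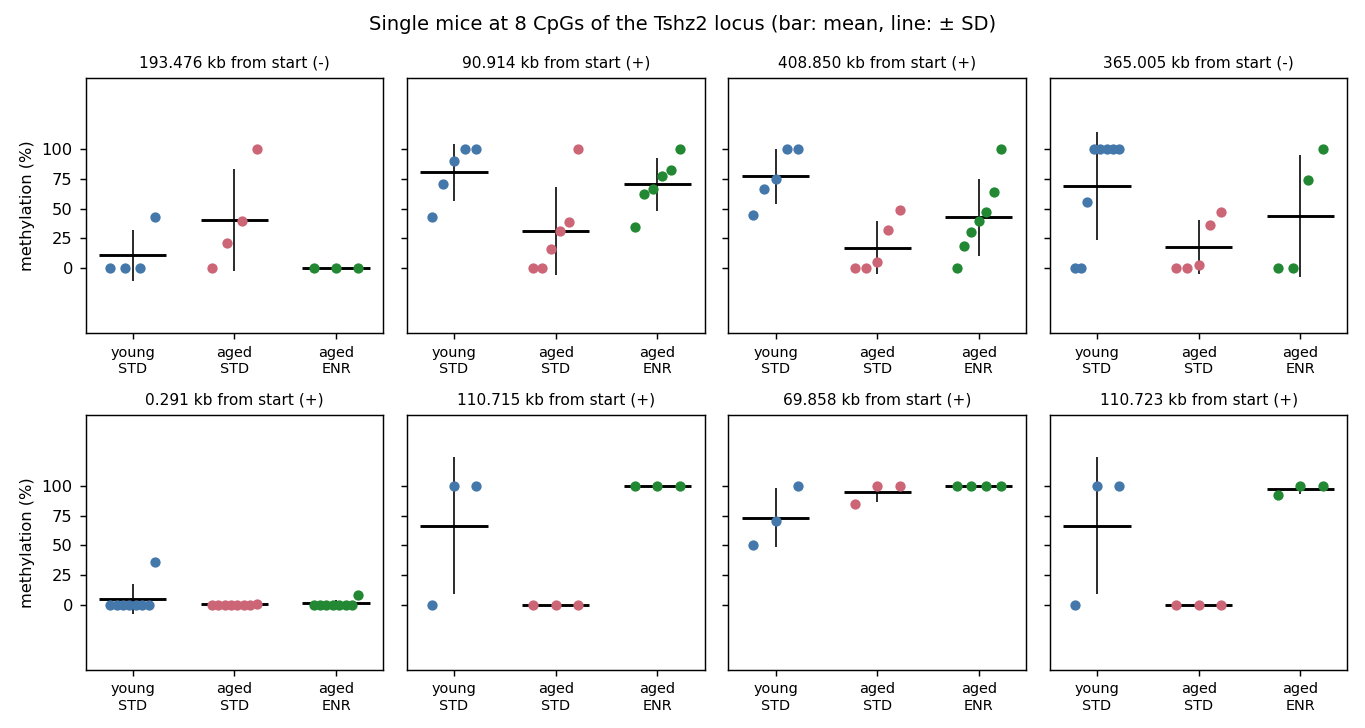
Methylation (y axis, percent) of single mice at 8 CpGs of the locus, each panel named by its distance from the Tshz2 start and its strand, with group means (bars) and SD (lines), which run past 0 or 100 where values are extreme. At 193.476 kb (chr2:169826489) aged STD mice span 0 to 100, at 110.715 kb aged STD mice are at 0 and aged ENR mice at 100, and at 0.291 kb in the first exon nearly all mice are at 0.

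The third CpG by p for aging, chr2:170059423, was higher in aged STD mice. Young STD mice were at 0 in 6 of 7 mice, with a highest value of 16.7%. Aged STD mice had a lowest value of 0%, a median of 46.9% and a highest of 100% (n = 6), and aged ENR mice a lowest of 0%, a median of 8.33% and a highest of 100% (n = 6). The means were 2.38% ± 6.30 (SD), 42.9% ± 35.2 and 27.5% ± 40.2, and the aging difference was 40.6 points (SE 16.6, adjusted p = 1 by limma). With 19 mice it was among the better covered CpGs that met the size criterion.

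For enrichment the 2 smallest p-values belonged to neighbouring CpGs of a single read block. At chr2:169743728 young STD mice were at 0%, 100% and 100%, aged STD mice at 0%, 0% and 0%, and aged ENR mice at 100%, 100% and 100%. At chr2:169743736 the values were the same except for an aged ENR mouse at 92.9%. The enrichment differences were 100 points (SE 26.5, adjusted p = 1 by limma) and 97.6 points (adjusted p = 1 by limma), the largest of the locus, with 3 mice in each group. Aged STD replicate 5 was 1 of the 3 aged STD mice, so without it neither these CpGs nor the block they lie in could be tested under the minimum of 3 mice.

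The block as a whole, chr2:169743716-169743777 with 5 CpGs, was the cluster with the smallest p for enrichment. It averaged 51.4% ± 47.6 (SD, n = 3) in young STD, 6.67% ± 11.5 (n = 3) in aged STD and 88.5% ± 19.9 (n = 3) in aged ENR mice, a difference of 81.8 points (SE 23.1, adjusted p = 0.969 by limma). The third CpG by p for enrichment, chr2:169723787, had young STD mice at 0%, 74.4%, 100% and 100% and aged STD mice at 21.2%, 24.1%, 25%, 55% and 95%. Aged ENR mice there ranged from 82.1% to 100% (median 100%, n = 6), above all aged STD mice but 1. Its enrichment difference was 52.1 points (SE 18.1, adjusted p = 1 by limma) and 47.3 points without aged STD replicate 5.

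The CpGs with the smallest p between aged ENR and young STD mice were chr2:169702871, chr2:169826583 and chr2:170003522. At chr2:169702871 young STD mice were at 50%, 70.6% and 100% and all 4 aged ENR mice at 100%, a difference of 26.5 points (adjusted p = 1 by limma). At chr2:169826583, at the right end of the amplicon, the 3 young STD mice were at 100%, aged STD mice at 0%, 50%, 86.5% and 100%, and aged ENR mice at 0%, 7.46%, 9.09% and 100%. This CpG was 1 of the 2 with differences over 25 points in the same direction, −40.9 for aging and −29.98 for enrichment, and aged ENR mice were 70.9 points below young STD mice (adjusted p = 1 by limma). At chr2:170003522 young STD mice were at 0%, 0% and 25.4% and aged ENR mice at 46.4%, 55.2%, 100% and 100%, which do not overlap, with a difference of 66.9 points (adjusted p = 1 by limma).

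By clusters, 0 of the 30 patches passed in any of the comparisons (limma, adjusted p under 0.05), against 4, 2 and 3 of 75607 clusters in the table (0.00529%, 0.00265% and 0.00397%). At an unadjusted p under 0.05 there were 2 for aging, 2 for enrichment and 1 for aged ENR against young STD mice (6.67%, 6.67% and 3.33%, against 4.89%, 4.25% and 4.78%). For aging they were the 3 CpGs at chr2:169885652-169885690 in the coding exon, at 81.8% ± 16.9 (SD, n = 6) in young STD and 100% in all 4 aged STD mice (18.2 points, adjusted p = 0.924 by limma), and chr2:169780577-169780649 in the first intron, 30.9 points lower in aged STD mice (adjusted p = 0.924 by limma) and 35.01 points lower without aged STD replicate 5. For enrichment they were the block described above and chr2:169742118-169742419 in the first intron, which lay the other way, at 83.5% ± 12.5 (SD, n = 5) in aged STD and 60.9% ± 23.2 (n = 6) in aged ENR mice (−22.5 points, adjusted p = 0.969 by limma). For aged ENR against young STD mice it was chr2:170051067-170051255, at 34.8% ± 19.5 (SD, n = 6) in young STD, 60.3% ± 23.5 (n = 6) in aged STD and 64.7% ± 24.1 (n = 5) in aged ENR mice (adjusted p = 0.944 by limma).

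Other loci put these shares in context, each taken as the gene with 2 kb on either side. For the related Tshz1 and Tshz3, 5 of 61 (8.20%) and 10 of 85 CpGs (11.8%) met the size criterion for aging, and 2 (3.28%) and 6 (7.06%) were opposite. For the co-repressor genes Ctbp1 and Ctbp2 it was 6 of 28 (21.4%) and 8 of 105 (7.62%), with 1 (3.57%) and 4 (3.81%) opposite. Their median levels were between 2.96% and 10.47%, against 74.5% at Tshz2, and 21.3% to 57.1% of their CpGs were intermediate.

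Of other large genes, Prdm16, which encodes a zinc finger transcription factor, had 75 of 284 CpGs over 25 points for aging (26.4%) and 31 opposite (10.9%), and Cacna1e, which encodes a voltage-gated calcium channel subunit, had 23 of 118 (19.5%) and 13 (11.02%). Cux2, a homeobox gene, had 44 of 299 (14.7%) and 21 (7.02%), and Camta1, which encodes a calmodulin-binding transcription activator, had 88 of 631 (13.9%) and 31 (4.91%). The share of intermediate CpGs was 65.5%, 50.8%, 47.5% and 39.8% in this order and 54.1% at Tshz2.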

How the data were processed

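DNA methylation was measured by RRBS in the dentate gyrus of 24 mice, 8 in each of the 3 groups. The authors deposited the percentage of methylated reads per CpG and mouse, with the strands kept separate, where a mouse had 10 or more reads at a CpG and each group had 3 or more such mice. The submitters' processing notes name Trim Galore 0.4.0, cutadapt 1.8.1, Bismark 0.16.1, methylKit 1.5.2 and the build mm10 (GRCm38). Read numbers are unknown, so a value resting on few reads and a value resting on many weigh the same, and intervals of single values were not computed.

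Group means were taken over the mice with a value. The study's cutoff of 25 points was applied to these means, without its read-level test. Percentages of all 694379 CpGs were fitted with limma 3.58.1 (R 4.3.3), with the 3 groups in a single fit, mice as replicates and Benjamini-Hochberg adjustment over all CpGs. The same was done for clusters of at least 3 CpGs with gaps of at most 200 bp. Cluster and locus levels of a mouse are its mean deviation from the CpGs' own means, added back to their mean, so that mice with different coverage can be compared. The CpG at chr2:169826489 was also compared by exact two-sided permutation tests. P-values set a difference between groups against the spread between these mice. The fit was checked on simulated data with a smaller spread between mice than at most CpGs named here, so that check does not give the power at these CpGs.

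The members, gene lists and rules were chosen with earlier results of these data known. Named with values per mouse were the CpG at chr2:169826489 and those within 50 bp, the 6 opposite CpGs with the most mice, the 3 CpGs with the smallest p in each comparison and 3 CpGs with a value in the most mice (those of larger SD, as 7 had all 24). Other CpGs named were chosen after their values were seen. Annotation came from GENCODE M21, sequences from RefSeq's GRCm38 assembly (samtools 1.23.1), and MspI sites and primers were matched to it. Tables were handled in Python 3.11.15 with pandas 2.3.3 and numpy 2.4.6.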

Additional observations from a re-analysis of the deposited data

Results flagged for a closer look

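Of 56 groups of 4 to 10 mice at the named CpGs, 15 held a highest or lowest mouse far from the rest of its group by Dixon's test, which chance alone flags in about 1 group in 20. In groups where nearly all values are exactly 0 or 100, a single other value is enough.

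In young STD mice the highest value stood apart at chr2:169826459 (40.9%, the others at 0%), chr2:169826466 (42.9%), chr2:169826489 (42.9%) and chr2:169826518 (27.8%). The first 3 of these belong to young STD replicate 5 and to a single read block. In the same group it stood apart at chr2:169826315 (100%), chr2:170059423 (16.7%) and chr2:169633304 (36.4%).

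In aged STD mice the lowest value stood apart at chr2:169826315 (0%), and the highest at chr2:169633304 (0.769%), chr2:169633334 (27.7%) and chr2:169633342 (24.3%). In aged ENR mice the lowest stood apart at chr2:169826251 (0%) and chr2:169723787 (82.1%), and the highest at chr2:169826583 (100%) and chr2:169633304 (8.11%). At chr2:169633304 all other mice were at 0.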

How the results depend on the processing

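Requiring at least 5 mice in each group left 62 CpGs and lowered the counts over 25 points from 47 to 9 for aging, from 47 to 4 for enrichment and from 48 to 9 for aged ENR against young STD mice, and the opposite CpGs from 26 to 4. As shares of the 62 these were 14.5%, 6.45%, 14.5% and 6.45%, against 5.15%, 4.72%, 4.82% and 1.64% of all CpGs under the same minimum, and the cause of the lower shares was not tested. The adjusted locus level of young STD mice was then 67.5%, that of aged STD mice 66.9% and that of aged ENR mice 65.9%. With medians, with thresholds of 20 or 30 points, with both cytosines of a dinucleotide averaged or without aged STD replicate 5, each count stayed within 1.5 times of that over all 233 CpGs.

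Under limma 0 CpGs and 0 clusters of the locus passed on the log2 scale or without aged STD replicate 5. Further, 0 CpGs passed with at least 5 mice per group, and 0 clusters with other gaps or plain means. Leaving out each mouse in turn, the difference at chr2:169826489 ranged from 9.48 to 42.8 points for aging, from −53.5 to −20.2 for enrichment and from −14.3 to 0 for aged ENR against young STD mice. With medians or without aged STD replicate 5, 116 values at named CpGs moved by less than the SD between mice, and 7 moved further, all with medians. Many of the 116 could not move without replicate 5, which had no value at many of these CpGs. That mouse also does not enter aged ENR against young STD mice. Such values say nothing about dependence on it.

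The labels number the animals of every group from 1 to 8, and no animal is in more than 1 group. Deviations of same-numbered mice correlated by −0.0405 to 0.0205 over 8628 CpGs, so no pairing by number was seen at those CpGs. Whether the numbers follow an order of processing or housing was not tested. With a replicate block 0 CpGs of the locus passed. Over the whole table the block gave 577, 504 and 485 calls, against 34, 31 and 35 without it, 38, 54 and 45 on the log2 scale and 0 in each comparison with at least 5 mice per group.

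The values without aged STD replicate 2 for the first exon, and without replicate 5 for the amplicon and the clusters, were added after seeing the data. The number of reads behind a value is unknown.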
